A study of Mus musculus with 17 samples.

Results

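The constitutive proteasome subunit genes were examined in whole lungs of mice after endotoxin. They were taken as the genes whose symbol is Psma, Psmb, Psmc or Psmd followed by a number, without the inducible subunit genes Psmb8, Psmb9 and Psmb10. In this way 35 genes were found among the 12393 genes that the array measures with a probe set naming a single gene. For a gene with several probe sets, the brightest was used, by its mean over the 17 arrays.

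Lung RNA of 17 male mice was hybridized to MOE430A arrays of Affymetrix, with each mouse on an array of its own. There were wild-type mice 22 h after saline (n = 4), wild-type mice 7 h (n = 3) and 22 h (n = 3) after lipopolysaccharide (LPS), a NOS2-/- mouse 22 h after saline (n = 1), and NOS2-/- mice 7 h (n = 3) and 22 h (n = 3) after LPS. NOS2-/- mice carry a disrupted gene for the inducible nitric oxide synthase. The LPS was from Escherichia coli O111:B4, injected into a vein at 20 mg/kg, and control mice received saline by the same route. Wild-type mice were C57BL/6J. The labels give no strain for the NOS2-/- mice and no age for any mouse. Saline mice were taken only at 22 h, so the 7 h groups are compared with controls of a later time, and all NOS2-/- responses to LPS rest on 1 control mouse. Values are log2 signals, and a change was called where the adjusted p was under 0.05 (limma, Benjamini-Hochberg over 22626 probe sets).

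The proteasome is the barrel-shaped protease that degrades proteins tagged with ubiquitin. Its core is built of alpha rings, which form the gate, and beta rings, which hold the proteolytic sites of Psmb5 (chymotrypsin-like), Psmb6 (caspase-like) and Psmb7 (trypsin-like). A regulatory cap binds ubiquitin chains, removes them and unfolds the substrate: its base holds a ring of ATPases (Psmc genes) and its lid holds most Psmd products. In cells exposed to interferon, Psmb8, Psmb9 and Psmb10 replace the 3 constitutive catalytic subunits and form the immunoproteasome.

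Of the 35 genes, 8 code for alpha subunits, 7 for beta subunits, 6 for ATPases, 3 for other proteins of the base, 8 for the lid, and 3 (Psmd5, Psmd9 and Psmd10) for chaperones that assemble the base and leave the finished particle. The genes lie on 16 chromosomes, with at most 6 on any of them. Psma8, the testis counterpart of Psma7, was dim, at the 13.9th percentile of mean signal over all probe sets, and Psmd10 lay at the 40.7th percentile. The other genes lay at the 61st percentile or above.

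Some arrays stood apart before any group was compared. Array medians were between 8.46 and 8.55, but 1 array of the wild-type LPS 22 h group (replicate 2) had the lowest spread of values (SD 1.60) and correlated with its replicates at 0.949 and 0.955, against 0.991 or more within every other group. Replicate 3 of the NOS2-/- LPS 7 h group had the next lowest spread (SD 1.66). The former was the lowest of its group for 31 of the 35 proteasome genes and the latter for 33 of 35. The lung of the NOS2-/- saline mouse had skeletal muscle markers (7 of 7 measured) at a median of 3.25 log2 units above the wild-type saline mean. For squamous epithelium markers (6 of 6 measured) the median was 1.94 above it, but not all of them were raised. Krt14 (7.09) lay within the range of the wild-type saline mice, and Krt6a (9.28) lay just above theirs (9.09 to 9.24). Nos2 itself, as measured by its probe set, lay between 7.75 and 8.47 in wild-type saline mice, between 8.93 and 9.06 in wild-type mice 7 h after LPS and between 8.19 and 8.80 at 22 h. It was 8.29 in the NOS2-/- saline mouse and between 8.85 and 9.25 in NOS2-/- mice after LPS. The sources used here do not say whether that probe set lies in the disrupted part of the gene, so it does not check the genotype labels.

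In wild-type lungs most proteasome genes were higher after LPS. At 7 h after LPS 24 of 35 genes were higher and 0 lower, where 14.4% of all probe sets were higher and 17.9% lower. At 22 h 31 of 35 genes were higher and 0 lower, where 12.8% of all probe sets were higher and 20% lower. The median log2 fold change of the 35 genes was 0.38 at 7 h and 0.43 at 22 h, against -0.05 and 0.00 over all probe sets. The rises were small: the largest was 1.83-fold (Psma7 at 22 h). At an unadjusted p under 0.05 limma gave 0 lower genes at 7 h and 1 at 22 h (Psmd5). The saline and LPS mice did not overlap for 32 genes at 7 h and for 28 at 22 h. How many of all probe sets separate in this way is not given here, so these counts have no background. Genes that were not called at 22 h were Psma8, the ATPase Psmc5, the lid gene Psmd13 and the chaperone Psmd5. Psma3 and Psmd11 were called at 22 h although replicate 2 lay within the range of the saline mice, and Psma1 although replicate 2 (9.46) lay just below all 4 of them. Without replicate 2, 32 genes were higher at 22 h, with a median of 0.57, and Psmb1 was no longer called. That array was the lowest of its group for 31 of the 35 genes, so a higher median follows from leaving it out. The share of all probe sets called in that fit is not given here.

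**Figure D1:**
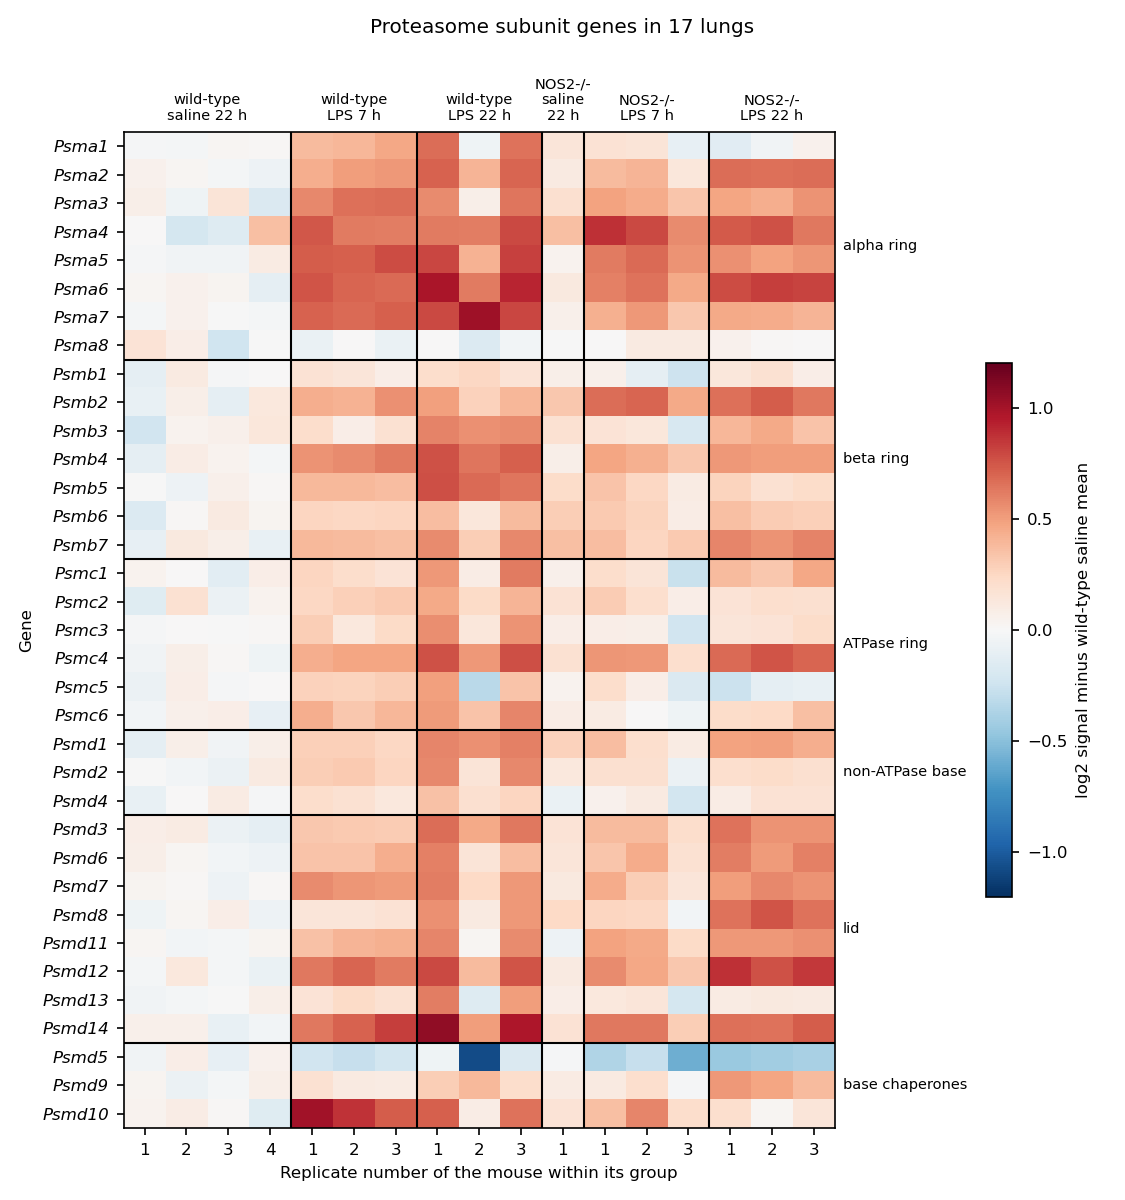
Heat map of the 35 proteasome genes (rows, grouped by part of the particle) in each of the 17 lungs (columns, numbered within their group). The colour is the log2 signal minus the mean of the 4 wild-type saline mice, with red above and blue below. Most rows are red after LPS, replicate 2 of wild-type LPS 22 h and replicate 3 of NOS2-/- LPS 7 h are paler than their group, and Psmd5 is blue.

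The alpha ring showed the highest median rise of the 6 subgroups in wild-type mice, with 7 of 8 genes higher at both times. Its median log2 fold change was 0.65 at 7 h and 0.64 at 22 h. Psma7, which sits in the alpha ring, was 10.52, 10.60, 10.54 and 10.52 in the wild-type saline mice, 11.26, 11.23 and 11.26 at 7 h and 11.34, 11.57 and 11.35 at 22 h. Every LPS mouse lay above every saline mouse, and replicate 2 was the highest at 22 h rather than the lowest. The log2 fold change of Psma7 was 0.70 ± 0.07 (SE, limma adjusted p = 7.36e-07) at 7 h and 0.87 ± 0.07 (adjusted p = 7.1e-08) at 22 h.

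Psma6, another alpha subunit, was 10.86, 10.89, 10.87 and 10.74 after saline, 11.59, 11.54 and 11.52 at 7 h and 11.82, 11.47 and 11.76 at 22 h. Its log2 fold change was 0.71 ± 0.08 (SE, limma adjusted p = 5.52e-06) at 7 h and 0.84 ± 0.08 (adjusted p = 8.63e-07) at 22 h. No LPS mouse overlapped with the saline mice. Psma5 was 10.82, 10.78, 10.78 and 10.92 after saline, 11.55, 11.54 and 11.61 at 7 h and 11.63, 11.24 and 11.64 at 22 h, a log2 fold change of 0.74 ± 0.09 (adjusted p = 5.93e-06) and 0.68 ± 0.09 (adjusted p = 1.5e-05). The 8th gene of the list, Psma8, had log2 fold changes of -0.06 at both times and was not called.

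In the beta ring 5 of 7 genes were higher at 7 h and 7 of 7 at 22 h. The catalytic subunit genes were all among them. Psmb5 was 10.67, 10.61, 10.73 and 10.68 after saline, 11.06, 11.06 and 11.04 at 7 h and 11.44, 11.35 and 11.31 at 22 h. The 3 groups did not overlap and followed each other in time. The log2 fold change of Psmb5 was 0.38 ± 0.06 (SE, limma adjusted p = 0.000237) at 7 h and 0.69 ± 0.06 (adjusted p = 5.52e-07) at 22 h.

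Psmb6 was 10.45, 10.62, 10.72 and 10.65 after saline, 10.86, 10.86 and 10.87 at 7 h and 10.98, 10.74 and 10.99 at 22 h. Its rise was the smallest of the 3 catalytic genes, with a log2 fold change of 0.25 ± 0.08 (SE, limma adjusted p = 0.025) and 0.29 ± 0.08 (adjusted p = 0.0104). Psmb7 was 11.67, 11.89, 11.83 and 11.68 after saline, 12.16, 12.15 and 12.13 at 7 h and 12.34, 12.06 and 12.34 at 22 h. Its log2 fold change was 0.38 ± 0.08 (adjusted p = 0.00123) at 7 h and 0.48 ± 0.08 (adjusted p = 0.00015) at 22 h, again without overlap. Among the beta subunits with no proteolytic site, Psmb4 had the largest change. It was 11.25, 11.44, 11.40 and 11.34 after saline, 11.89, 11.92 and 11.98 at 7 h and 12.12, 12.00 and 12.07 at 22 h, a log2 fold change of 0.71 ± 0.06 (adjusted p = 3.25e-07) at 22 h.

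In the cap, 3 of 6 ATPase genes were higher at 7 h and 5 of 6 at 22 h. Psmc4 had the largest change of the ring, 0.46 ± 0.08 (SE, limma adjusted p = 0.000539) and 0.69 ± 0.08 (adjusted p = 1.08e-05). Of the other base genes, 2 of 3 were higher at 7 h and all 3 at 22 h. These are the scaffold genes Psmd1 and Psmd2 and the ubiquitin receptor gene Psmd4, with log2 fold changes of 0.58, 0.43 and 0.27 at 22 h. In the lid, 6 of 8 genes were higher at 7 h and 7 of 8 at 22 h.

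Psmd14, the deubiquitinase of the lid, was 10.75, 10.75, 10.60 and 10.66 after saline, 11.33, 11.40 and 11.52 at 7 h and 11.75, 11.19 and 11.66 at 22 h. Its log2 fold change was 0.72 ± 0.12 (SE, limma adjusted p = 0.000181) at 7 h and 0.85 ± 0.12 (adjusted p = 4.09e-05) at 22 h, and no LPS mouse overlapped with the saline mice. Psmd10, which codes for the base chaperone gankyrin, was 7.85, 7.90, 7.82 and 7.67 after saline, 8.82, 8.68 and 8.54 at 7 h and 8.53, 7.90 and 8.47 at 22 h. With a log2 fold change of 0.87 ± 0.13 (adjusted p = 0.000106) it had the largest rise of the 35 genes at 7 h, and at 22 h the change was 0.49 ± 0.13 (adjusted p = 0.0103). Replicate 2 lay just above the highest saline mouse.

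Psmd5, another base chaperone, went the other way in sign without passing the test. It was 9.30, 9.42, 9.24 and 9.39 after saline, 9.11, 9.06 and 9.12 at 7 h and 9.29, 8.26 and 9.16 at 22 h. The log2 fold changes were -0.24 ± 0.17 (SE, limma adjusted p = 0.345) and -0.43 ± 0.17 (adjusted p = 0.0717). Replicate 2 of the 22 h group lay far below the other LPS mice. Without replicate 2 Psmd5 was called lower at 7 h, with the same value of -0.24 (adjusted p = 0.00939), and stood at -0.11 at 22 h (adjusted p = 0.305), while without replicate 1 or replicate 3 of the 22 h group it was called lower at 22 h (-0.62 and -0.56).

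**Figure D2:**
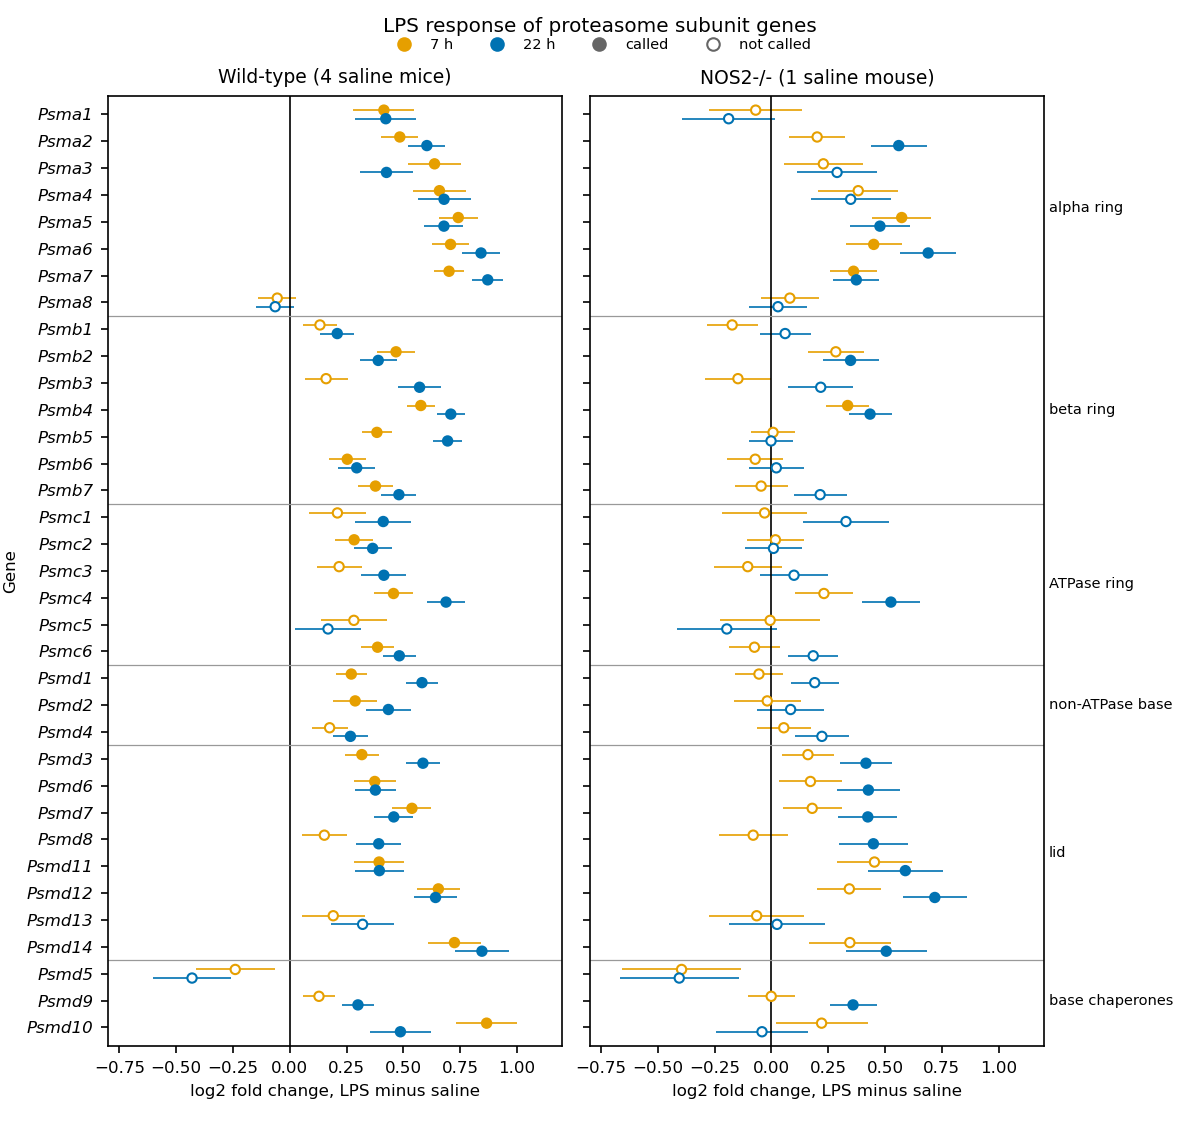
Log2 fold change of each proteasome gene after LPS against saline of the same genotype, at 7 h (orange) and 22 h (blue). Bars are standard errors of the limma fit, and filled points passed an adjusted p under 0.05. In wild-type mice (left) 24 and 31 points are filled, all above 0, and in NOS2-/- mice (right) 4 and 15.

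Whole lung holds many kinds of cells, and their markers changed with LPS in wild-type mice. Of the neutrophil markers (7 of 8 measured), 7 were higher at both times, and the log2 of their summed signal was 12.23 to 12.71 after saline, 15.33 to 15.52 at 7 h and 15.59 to 15.72 at 22 h. Of the monocyte and macrophage markers (7 of 8 measured), 5 were higher and 1 lower at both times, with sums of 12.77 to 12.84, 14.08 to 14.16 and 14.01 to 14.33. Of 7 endothelial markers, 5 were lower and 1 higher at both times, with sums of 14.66 to 14.75, 13.93 to 14.03 and 14.02 to 14.38. Of the alveolar type 2 cell markers (5 of 6 measured), 4 were lower and 1 higher, with sums of 16.32 to 16.41, 16.17 to 16.25 and 15.95 to 16.10. Log2 signals have no true 0, so no marker can be called absent. In whole lung, more or fewer cells of a type and more or less RNA per cell cannot be told apart, and the part of the cell make-up in the rise of the proteasome genes was not tested.

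Of the 35 genes, 17 had more than 1 probe set, which gave 29 further probe sets. At 22 h after LPS in wild-type mice, 26 of the 29 had the same sign as the probe set used, 14 were called higher and 0 lower. The 3 of opposite sign belonged to Psmb1 (-0.17), Psmd11 (-0.03) and Psmd7 (-0.01), and none of them was called. At 7 h 21 of 29 had the same sign, and 11 were called higher and 0 lower.

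Promoter sequence was read from RefSeq (GRCm38.p6), which gave 250 bases before an annotated transcript start for 28 of the 35 genes, in 30 windows since some genes have more than 1 start. The antioxidant response element, which is bound by NRF1 (the product of Nfe2l1) and NRF2 with small Maf partners and is known from proteasome genes, was searched by its core TGACNNNGC on both strands. It was found in 5 of the 30 windows (16.7%), those of Psmb5, Psmb6, Psmc6, Psmd9 and Psmd12, and in 10.2% of the 32851 windows of all genes. The looser core TGANNNNGC, which includes it, was in 12 of 30 windows (40%) against 35.2% of all. The ETS-type motif CCGGAAG was in 10 of 30 windows (33.3%), of 9 genes, against 6.91% of all, CCAAT in 11 of 30 (36.7%) against 33.8%, and the STAT-type TTCNNNGAA in 0 of 30 against 7.02%. A match is a description of these letters and not a bound site. The median log2 fold change in wild-type mice at 22 h was 0.48 for the 5 genes with TGACNNNGC and 0.43 for the other 23 with a window. It was 0.41 for the 9 genes with CCGGAAG and 0.57 for the other 19.

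The stretches around TGACNNNGC are shown because they differ in place: 22 and 38 bases before the start in Psmd9 and Psmb5, directly before it in Psmb6, and 218 and 238 bases before it in Psmc6 and Psmd12. Distances are to the transcript start of the window, which in Psmb6 is 33 bases inside the extent of the gene, in Psmc6 is 1 base inside, and in the other 3 genes is the outer end. The stretches are written 5′ to 3′ on the strand of the gene with the motif in capitals, and in Psmc6 and Psmd12 the motif is on the opposite strand. They lie at chr14:54618008-54618068 on the minus strand (Psmb5), and on the plus strand at chr11:70525322-70525356 (Psmb6), chr14:45329574-45329631 (Psmc6), chr5:123228133-123228189 (Psmd9) and chr11:107479278-107479315 (Psmd12).
Psmb5: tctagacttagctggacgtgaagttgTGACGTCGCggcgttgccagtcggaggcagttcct
Psmb6: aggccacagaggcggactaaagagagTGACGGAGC
Psmc6: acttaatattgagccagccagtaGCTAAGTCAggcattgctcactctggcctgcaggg
Psmd9: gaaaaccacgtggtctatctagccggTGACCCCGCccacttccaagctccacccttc
Psmd12: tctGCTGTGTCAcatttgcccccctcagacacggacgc

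Of the windows with CCGGAAG, those of the 3 genes with the largest wild-type change at 22 h are given, again with the motif in capitals. They lie on the plus strand at chr12:55398667-55398725 (Psma6), chr14:45329698-45329756 (Psmc6) and chr11:107479485-107479527 (Psmd12, motif on the opposite strand). The stretch of Psma6 precedes a second annotated start 14603 bases inside the gene, and not its first. Psmc6 and Psmd12 hold both motifs.
Psma6: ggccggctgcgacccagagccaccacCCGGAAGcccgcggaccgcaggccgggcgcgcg
Psmc6: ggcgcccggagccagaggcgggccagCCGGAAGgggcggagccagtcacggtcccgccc
Psmd12: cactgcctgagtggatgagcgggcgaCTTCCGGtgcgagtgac

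The catalytic genes were set beside their inducible counterparts, which were higher in all 4 comparisons of LPS with saline. Psmb8, the counterpart of Psmb5, was 10.69, 10.65, 10.48 and 10.51 in wild-type saline mice, 12.33, 12.42 and 12.50 at 7 h and 11.97, 11.88 and 12.00 at 22 h. Its log2 fold change was 1.83 ± 0.07 (SE, limma adjusted p = 3.19e-11) at 7 h and 1.37 ± 0.07 (adjusted p = 8.9e-10) at 22 h. Thus Psmb8 was highest at 7 h while Psmb5 was highest at 22 h.

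Psmb9, the counterpart of Psmb6, was 10.18, 10.17, 9.99 and 10.14 after saline, 11.63, 11.69 and 11.64 at 7 h and 10.78, 10.75 and 10.92 at 22 h. The log2 fold change was 1.54 ± 0.07 (SE, limma adjusted p = 1.65e-10) and 0.70 ± 0.07 (adjusted p = 1.17e-06). Psmb10, the counterpart of Psmb7, was 10.97, 10.89, 10.91 and 10.97 after saline, 12.42, 12.35 and 12.33 at 7 h and 11.79, 11.84 and 11.75 at 22 h. The changes were 1.43 ± 0.08 (adjusted p = 3.04e-09) and 0.86 ± 0.08 (adjusted p = 1.05e-06). In NOS2-/- mice the changes of Psmb8, Psmb9 and Psmb10 were 1.69, 1.23 and 1.37 at 7 h and 1.50, 0.57 and 1.08 at 22 h, all called. Psmb8 and Psmb9 are neighbours on chromosome 17, at chr17:34198195-34201454 and chr17:34182030-34187330 (GRCm38.p6), apart from Psmb5 (chr14:54614120-54617995), Psmb6 (chr11:70525324-70527858), Psmb7 (chr2:38588046-38643952) and Psmb10 (chr8:105935728-105938392).

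**Figure D3:**
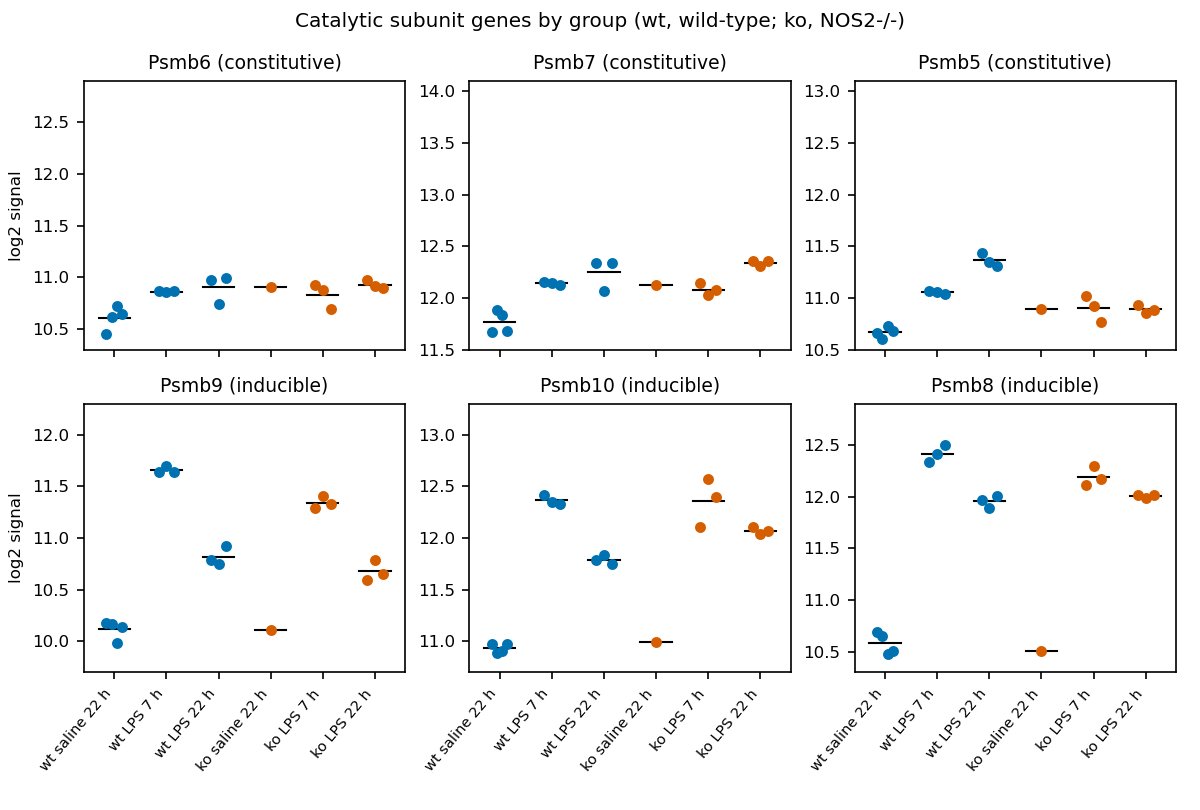
Log2 signal of the constitutive catalytic genes (top) and their inducible counterparts (bottom) in every lung, by group, with wild-type mice in blue, NOS2-/- mice in orange and a line at each group mean. All panels span the same number of log2 units. The inducible genes peak at 7 h in wild-type mice, and wild-type Psmb5 lies highest at 22 h, above all NOS2-/- mice.

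The levels after LPS were next compared between the times. In wild-type mice, between 7 h and 22 h 4 of 35 constitutive genes rose and 0 fell, where 3.15% of all probe sets rose and 7.68% fell. They were Psmb3 (0.41 ± 0.10, SE, limma adjusted p = 0.0163), Psmb5 (0.31 ± 0.07, adjusted p = 0.00839), the base scaffold gene Psmd1 (0.31 ± 0.07, adjusted p = 0.0132) and the lid gene Psmd3 (0.27 ± 0.08, adjusted p = 0.0447). Psmb3 was 10.48, 10.35 and 10.45 at 7 h and 10.87, 10.81 and 10.84 at 22 h. For Psmd1 the values were 10.27, 10.27 and 10.23, then 10.57, 10.54 and 10.59. Psmd3 went from 10.47, 10.47 and 10.45 to 10.82, 10.60 and 10.78. All 4 genes were separated between the times. Fitted on these groups alone none of the 4 was called (0.411% of all probe sets were higher), and after quantile normalization 13 genes rose (5.46%).

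At an unadjusted p under 0.05 limma gave 1 lower gene over the same interval, Psmd10. The inducible genes fell from 7 h to 22 h, by 0.46 (Psmb8, adjusted p = 0.00104), 0.84 (Psmb9, adjusted p = 6.23e-06) and 0.57 (Psmb10, adjusted p = 0.000734) on the log2 scale in limma. Without replicate 2 of the 22 h group, 13 constitutive genes rose, where 7.41% of all probe sets did. Without either replicate 2 or replicate 3 of the wild-type 7 h group 2 rose.

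In NOS2-/- mice fewer proteasome genes passed the test against the single saline mouse. At 7 h 4 of 35 genes were higher (Psma5, Psma6, Psma7 and Psmb4) and 0 lower, where 8.78% of all probe sets were higher and 13.7% lower. The count of higher genes at 7 h was thus near the share of all probe sets. Of the 29 further probe sets, which include some of each of these 4 genes, 0 were called at 7 h. At 22 h 7 of the 29 were called higher and 0 lower. At 22 h 15 genes were higher and 0 lower, where 11.6% of all probe sets were higher and 16% lower. The median log2 fold change of the 35 genes was 0.05 at 7 h and 0.29 at 22 h, against 0.04 and 0.03 over all probe sets. At an unadjusted p under 0.05 limma gave 0 lower genes at either time. At 7 h 7 genes were higher without NOS2-/- LPS replicate 3, and 7 higher and 1 lower (Psmd5) without wild-type LPS 22 h replicate 2. Quantile normalization gave 8 higher at 7 h, and the mean of a gene's probe sets 2. For these alternatives the share of all probe sets called is not given here. The 15 genes at 22 h were 4 of 8 alpha genes, 2 of 7 beta genes (Psmb2 and Psmb4), 1 of 6 ATPase genes (Psmc4), 7 of 8 lid genes and the base chaperone gene Psmd9. None of the 3 catalytic subunit genes was among them. The neutrophil markers moved here too, with 6 and 7 of the 7 higher at 7 h and 22 h and sums of 12.92 in the saline mouse, 15.08 to 15.34 at 7 h and 15.62 to 15.68 at 22 h, and their part was not tested.

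Psmd12, a lid gene, had the largest change at 22 h. It was 10.42 in the NOS2-/- saline mouse, 10.87, 10.78 and 10.64 at 7 h and 11.18, 11.07 and 11.16 at 22 h, a log2 fold change of 0.72 ± 0.14 (SE, limma adjusted p = 0.00123). Psma6 was 10.96 after saline, 11.44, 11.49 and 11.29 at 7 h and 11.62, 11.67 and 11.65 at 22 h, with changes of 0.45 ± 0.12 (adjusted p = 0.015) and 0.69 ± 0.12 (adjusted p = 0.000571). Both genes lay above the saline mouse in all 6 LPS mice. Psmd11, a lid gene, was 11.70 after saline and 12.28, 12.28 and 12.31 at 22 h, a change of 0.59 ± 0.17 (adjusted p = 0.0139).

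Psma2, an alpha gene, was 11.76 in the saline mouse and 12.33, 12.32 and 12.32 at 22 h, a log2 fold change of 0.56 ± 0.12 (SE, limma adjusted p = 0.00286). Psmc4, an ATPase gene, was 10.07 and then 10.57, 10.64 and 10.59, a change of 0.53 ± 0.13 (adjusted p = 0.00569). At 7 h the largest change was that of Psma5, which was 10.87 after saline and 11.45, 11.51 and 11.37 after LPS (0.57 ± 0.13, adjusted p = 0.00444). The other genes called at 7 h were Psma7 (0.36 ± 0.10, adjusted p = 0.0173) and Psmb4, with 11.43 after saline and 11.83, 11.78 and 11.68 after LPS (0.34 ± 0.09, adjusted p = 0.0179).

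The catalytic genes of NOS2-/- mice lay close to their saline mouse. Psmb5 was 10.90 after saline, 11.02, 10.92 and 10.77 at 7 h and 10.93, 10.86 and 10.89 at 22 h. Its log2 fold change was 0.01 ± 0.10 (SE, limma adjusted p = 0.966) at 7 h and 0.00 ± 0.10 (adjusted p = 0.994) at 22 h. Psmb6 was 10.91 after saline, 10.92, 10.88 and 10.70 at 7 h and 10.97, 10.91 and 10.90 at 22 h, with changes of -0.07 ± 0.12 and 0.02 ± 0.12. Here the LPS mice lay on both sides of the saline mouse. Psmb7 was 12.13 after saline, 12.14, 12.03 and 12.08 at 7 h and 12.36, 12.31 and 12.36 at 22 h, with changes of -0.05 ± 0.12 and 0.21 ± 0.12 that were not called.

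The choice of control moved these counts. The NOS2-/- saline mouse, whose lung was high in muscle and most squamous markers, lay above all 4 wild-type saline mice for 24 of the 35 genes. It lay below them for 1 and within their range for 10. The share of all probe sets in which this mouse lay above all 4 is not given here, so these numbers have no background. Against the 4 wild-type saline mice, 20 genes were higher at 7 h and 24 at 22 h, with 0 lower, where 15.4% and 17.9% of all probe sets were higher and 21.3% and 22.8% lower. The median log2 fold changes were then 0.23 and 0.46. On that basis Psmb5, Psmb6 and Psmb7 were called at both times, with log2 fold changes of 0.23, 0.23 and 0.31 at 7 h and 0.22, 0.32 and 0.57 at 22 h. Whether the source of these markers in that lung has a part in the levels of its proteasome genes was not tested. The genotype and the single mouse cannot be told apart.

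Between 7 h and 22 h 5 of 35 genes rose in NOS2-/- mice and 0 fell, where 4.65% of all probe sets rose and 3.16% fell, and limma gave 0 lower genes at an unadjusted p under 0.05. Psmd8, a lid gene, had the largest change, from 11.08, 11.08 and 10.79 to 11.47, 11.58 and 11.48 (0.53 ± 0.11, SE, limma adjusted p = 0.00698). The others were Psmd12 (0.38 ± 0.10, adjusted p = 0.0315), Psmb3 (0.36 ± 0.10, adjusted p = 0.0396), the chaperone gene Psmd9 (0.36 ± 0.07, adjusted p = 0.00721) and Psma2 (0.36 ± 0.09, adjusted p = 0.0195). Psmb3 went from 10.43, 10.41 and 10.07 to 10.67, 10.72 and 10.61. For Psmd9 the values were 8.93, 9.02 and 8.81, then 9.35, 9.30 and 9.21. In each of these genes replicate 3 was the lowest of the 7 h mice. Without it 2 genes rose, Psmd8 and Psmd9. Without replicate 2 of the 7 h mice 3 rose, and without any one of the 22 h mice 2 rose. Without replicate 2 of the wild-type 22 h group, which leaves these mice as they were and alters the shared estimate of the spread alone, 15 rose. Centring on the median gave 10 and the compared groups alone 12. The shares of all probe sets that rose in these fits are not given here, so the larger counts may follow the background.

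The change from 7 h to 22 h was compared between the genotypes directly. In that test 0 of 35 genes were higher and 0 lower, where 2.49% of all probe sets were higher and 0.544% lower. At an unadjusted p under 0.05 limma gave 2 higher genes and 1 lower, Psmb5, with a difference of -0.32 ± 0.10 (SE, adjusted p = 0.0936). Without replicate 2 of the wild-type 22 h group 1 gene was lower, Psma1.

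The genotypes were then compared after LPS, which does not use the single saline mouse. At 7 h 0 of 35 genes were higher and 1 lower in NOS2-/- mice, where 0.526% of all probe sets were higher and 1.48% lower. The gene was the ATPase gene Psmc6, which was 11.05, 10.93 and 11.01 in wild-type mice and 10.71, 10.62 and 10.56 in NOS2-/- mice. These groups did not overlap, and the difference was -0.37 ± 0.08 (SE, limma adjusted p = 0.0334). The mean of the 3 probe sets of Psmc6 gave -0.23, which was not called. At an unadjusted p under 0.05 limma gave 0 higher and 10 lower genes. The share of all probe sets at that threshold is not given here, so these counts have no background. The median of the 35 genes was -0.17, against 0.03 over all probe sets. Without the wild-type 22 h replicate 2, 10 genes were called lower, where 14.1% of all probe sets were, and without NOS2-/- LPS 7 h replicate 1, 2 were. The count was 0 without any one of the wild-type 7 h mice, NOS2-/- LPS 7 h replicate 2 or 3, or any one of the NOS2-/- 22 h mice. Quantile normalization gave 0 lower genes and the compared groups alone 6, with no share of all probe sets given here. In the same comparison 3 of 7 neutrophil markers and 1 of 7 monocyte and macrophage markers were lower and 0 higher, and their part was not tested.

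At 22 h 1 gene was higher and 3 were lower in NOS2-/- than in wild-type mice, where 9.63% of all probe sets were higher and 6.81% lower. With all arrays, then, the higher count was under the share of all probe sets and the lower count near it. The median of the 35 genes was -0.03, against 0.01 over all probe sets. Psmb5, the chymotrypsin-like subunit gene, was 11.44, 11.35 and 11.31 in wild-type and 10.93, 10.86 and 10.89 in NOS2-/- mice, a difference of -0.47 ± 0.07 (SE, limma adjusted p = 0.00033). Psma7 was 11.34, 11.57 and 11.35 in wild-type and 11.00, 11.00 and 10.96 in NOS2-/- mice, a difference of -0.44 ± 0.07 (adjusted p = 0.000821). Both were separated between the genotypes. Of the cell markers at 22 h, 4 of 7 for monocytes and macrophages and 2 of 7 for neutrophils were lower in NOS2-/- mice with 0 higher, 2 of 7 endothelial markers were higher and 2 lower, and 2 of 7 skeletal muscle markers were higher. Their summed log2 signals overlapped between the genotypes for monocytes and macrophages (14.01 to 14.33 in wild-type and 14.04 to 14.11 in NOS2-/- mice) and for neutrophils (15.59 to 15.72 and 15.62 to 15.68). Of the 5 measured alveolar type 2 cell markers, 2 were higher and 1 lower in NOS2-/- mice. Their sums did not overlap, with 15.95 to 16.10 in wild-type and 16.14 to 16.16 in NOS2-/- mice. The part of all these cells in the differences was not tested. Psmb5 has a single probe set on the array, and the other probe set of Psma7 had a difference of -0.25 that was not called (adjusted p = 0.212). Of the 29 further probe sets, limma called 2 higher in NOS2-/- mice and 0 lower. Both belong to the lid gene Psmd11 (0.43, adjusted p = 0.0104, and 0.23, adjusted p = 0.035). The probe set used for Psmd11 had a difference of 0.13 that was not called.

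Psma1 was the other lower gene, with 10.17, 9.46 and 10.16 in wild-type and 9.37, 9.47 and 9.56 in NOS2-/- mice (-0.46 ± 0.14, SE, limma adjusted p = 0.039). Its groups overlapped through replicate 2 of the wild-type mice. Psmb2, a beta subunit gene with no proteolytic site, was higher, with 10.93, 10.72 and 10.85 in wild-type and 11.11, 11.17 and 11.08 in NOS2-/- mice (0.28 ± 0.09, adjusted p = 0.0374). Without replicate 2, 14 genes were lower and 0 higher, where 15.4% of all probe sets were lower and 11.2% higher. Then Psmb5 was at -0.48 (adjusted p = 0.000121), Psma7 at -0.36 (adjusted p = 0.000504), Psma1 at -0.70 (adjusted p = 8.25e-06) and Psmb2 at 0.23, no longer called (adjusted p = 0.0629). Without wild-type LPS 22 h replicate 1, 3 genes were higher, and 0 without wild-type LPS 7 h replicate 1 or 2 or any one of the NOS2-/- 22 h mice. The 14 genes held 3 alpha genes, 2 beta genes, 4 ATPase genes, Psmd2, the lid genes Psmd13 and Psmd14, and the chaperone genes Psmd5 and Psmd10. Psmd12, Psmd8 and the other 4 lid genes were not called. Quantile normalization with all arrays gave 11 lower genes and 0 higher, and the compared groups alone 1 lower, Psmb5, and 0 higher. Shares of all probe sets are not given here for these last fits.

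**Figure D4:**
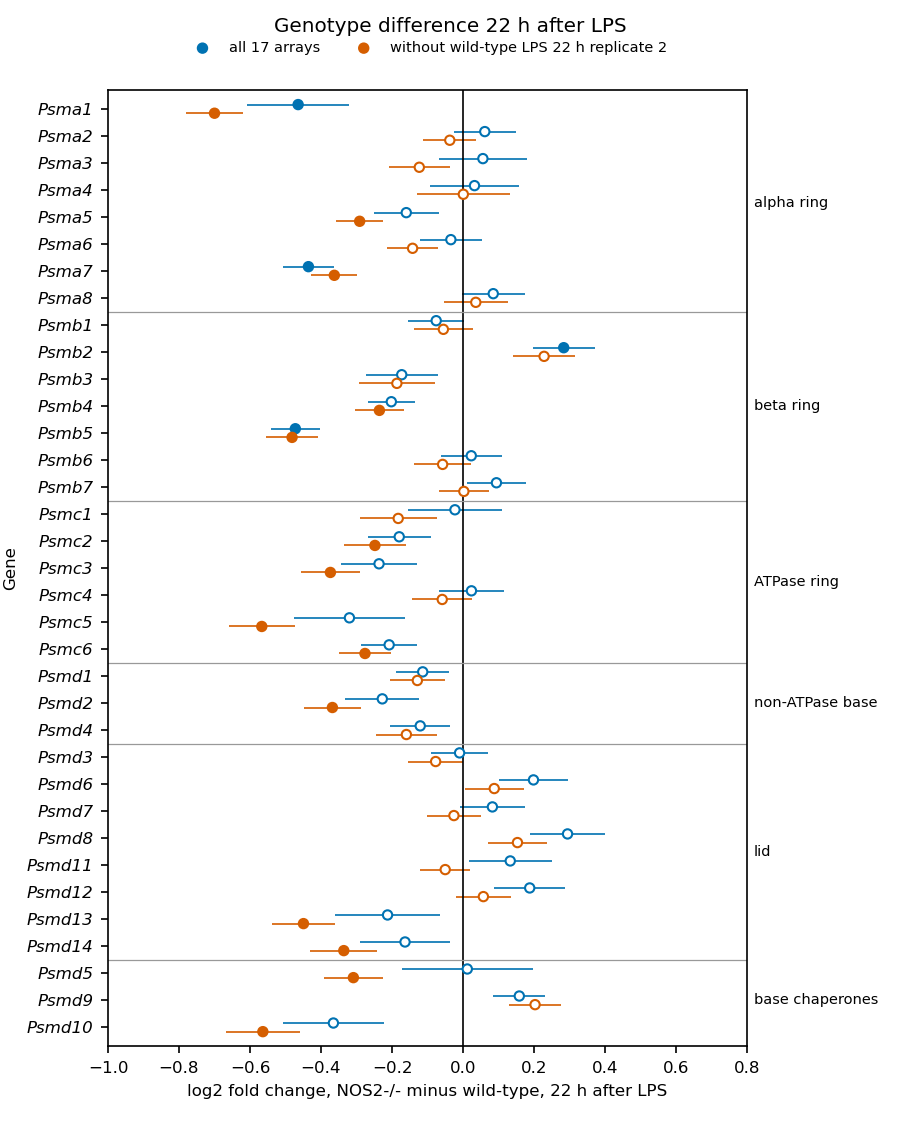
Difference between NOS2-/- and wild-type mice 22 h after LPS for each proteasome gene, with all 17 arrays (blue) and without wild-type replicate 2 (orange). Bars are standard errors of the limma fit and filled points passed an adjusted p under 0.05. Psmb5 and Psma7 are lower in both fits, and the other filled orange points to the left of 0 were not called with all arrays, apart from Psma1.

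The responses to LPS at 22 h were also compared between the genotypes, each against its own saline mice. Of the 35 genes 0 were higher and 2 lower, where 2.52% of all probe sets were higher and 2.18% lower. The lower genes were Psmb5, with a difference in response of -0.70 ± 0.12 (SE, limma adjusted p = 0.00299), and Psma7, with -0.50 ± 0.12 (adjusted p = 0.0292). At an unadjusted p under 0.05 limma gave 0 higher and 8 lower genes, with no share of all probe sets given here. Psmb5 was called in all 25 alternatives run, with values from -0.76 to -0.65, and Psma7 in 18 of 25. Psmb5 alone was called after quantile normalization and with the compared groups alone. Without replicate 2 of the wild-type 22 h group 14 genes were lower, where 9.34% of all probe sets were, and without any one of the NOS2-/- 22 h mice 1 was. These differences rest on the same single saline mouse.

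Other genes of the proteasome system followed in part. Of the activators and inhibitor, 4 of 5 were measured. Psme1, a subunit of the PA28 activator that is induced by interferon, was higher in all 4 comparisons with saline, with log2 fold changes of 1.34 and 0.97 in wild-type and 1.03 and 0.88 in NOS2-/- mice at 7 h and 22 h. Psme3 was called in wild-type mice at 7 h alone (0.54) and the inhibitor Psmf1 in NOS2-/- mice at 22 h alone (0.39, held in 10 of 27 alternatives), which does not test a difference between groups.

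Of the 5 chaperones that assemble the core, 2 were higher in wild-type mice at each time, Pomp (0.39 and 0.44) and Psmg4 (0.36 and 0.25). Psmg2 fell instead, by 0.42 in wild-type mice at 22 h and by 0.49 and 0.92 in NOS2-/- mice at 7 h and 22 h. Of 7 associated proteins 5 were measured. In wild-type mice the small lid subunit gene Sem1 (0.33 and 0.39) and the deubiquitinase gene Uchl5 (0.52 and 0.53) were higher at both times. In NOS2-/- mice, against 1 saline mouse, 0 of 5 passed the test. There Uchl5 was 8.44 after saline and 8.93, 9.05 and 8.97 at 22 h, a log2 fold change of 0.54. Compared directly between the genotypes after LPS, 0 of 5 were called at either time. Of the ubiquitin system 4 of 10 genes were measured. The shuttle gene Ubqln1 was lower in all 4 comparisons, by up to 0.84, and Vcp, which codes for an unfoldase that feeds the proteasome, was higher in wild-type mice (0.29 and 0.36), at 7 h in 13 of 26 alternatives.

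Of the genes around NRF1, 6 of 7 were measured, 5 of them higher and 0 lower in wild-type mice at 7 h. Nfe2l1, which codes for NRF1, was 11.11, 11.13, 11.20 and 11.09 in wild-type saline mice, 11.44, 11.42 and 11.41 at 7 h and 11.09, 11.09 and 10.96 at 22 h. It was higher at 7 h (0.29 ± 0.06, SE, limma adjusted p = 0.00232), and at 22 h the difference was -0.09 (adjusted p = 0.347). Most constitutive subunit genes were higher at both times in wild-type mice, and the part of NRF1 in their levels was not tested. In NOS2-/- mice Nfe2l1 was 10.98 after saline, 11.38, 11.25 and 11.16 at 7 h and 11.10, 11.21 and 11.21 at 22 h, called at 7 h (0.29, limma adjusted p = 0.0446, held in 11 of 27 alternatives) and not at 22 h (0.20, adjusted p = 0.158).

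The small Maf genes Maff, Mafk and Mafg, whose products pair with NRF1 and NRF2, were higher in all 4 comparisons with saline. Maff had the largest changes, 2.01 and 1.66 in wild-type and 2.38 and 2.91 in NOS2-/- mice. Its response at 22 h was larger in NOS2-/- mice by 1.25 ± 0.17 (SE, limma adjusted p = 0.000766). That value rests on the single NOS2-/- saline mouse, in which Maff was 8.34 against 8.93 to 9.09 in the wild-type saline mice. Compared directly at 22 h after LPS, Maff was higher in NOS2-/- than in wild-type mice by 0.57. Ngly1, which codes for the deglycosylase that processes NRF1, was lower in NOS2-/- mice at 22 h, by 0.87 against saline (adjusted p = 0.00391).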

How the data were processed

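Whole-lung RNA of 17 mice was measured on Affymetrix MOE430A arrays. The deposited values, on a log2 scale, were summarized by the authors for each probe set with affy in R. The sources used here give neither the affy version nor the normalization method. Symbols came from the platform's probe table, brought to GRCm38.p6 by gene ID. The 64 controls among 22690 probe sets were removed. A linear model with a mean for each of the 6 groups was fitted to the 17 arrays (limma 3.58.1, R 4.3.3), and 10 contrasts were tested with moderated statistics (prior degrees of freedom 3.75), adjusted over 22626 probe sets. The fit was tested on simulated data. The number of mice limits the precision.

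The genes, the lists (119 genes, 105 measured) and the alternatives were chosen with earlier results of these data known. Full values are given for Psmb5, Psmb6 and Psmb7, and per comparison for up to 5 called genes with the largest change and no overlap between groups. Psmb8, Psmb9, Psmb10, Nfe2l1 and up to 4 called genes per list are named. Values of Psma1 and Psmd5, and 22 h values of Psma5 and Psmd10, were added after they were seen. Promoter sequences were those of RefSeq (GRCm38.p6). Promoter windows were not given for Psma8, Psmb1, Psmb2, Psmb7, Psmc3, Psmd3 and Psmd7. Alternatives were quantile normalization, centring on the median, a filter at the 40th percentile, a trended and robust fit, the mean of a gene's probe sets, the compared groups alone, a replicate block, an adjusted p under 0.01, each array left out and the wild-type saline mice as the control.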

Additional observations from a re-analysis of the deposited data

Results flagged for a closer look

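Genes whose level after LPS differed between the 2 times within a genotype stood out, each by limma's test of that difference. In wild-type mice the log2 change from 7 h to 22 h was 0.41 for Psmb3, 0.31 for Psmb5, 0.31 for Psmd1 and 0.27 for Psmd3. It was -0.38 for Nfe2l1, -0.57 for Psmb10, -0.46 for Psmb8 and -0.84 for Psmb9.

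In NOS2-/- mice the change was 0.36 for Psma2, 0.36 for Psmb3, 0.38 for Psmd12, 0.53 for Psmd8 and 0.36 for Psmd9. Psmb9 changed by -0.66.

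Responses to LPS at 22 h that differed between the genotypes, by an interaction contrast in limma, were those of Psma7 (-0.50) and Psmb5 (-0.70), both smaller in NOS2-/- mice. No single wild-type saline mouse stood far from the other 3 for any of the genes with full values. Groups of 3 were not tested for this.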

How the results depend on the processing

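The wild-type counts of higher genes kept within 1.5 times of the reported ones under all alternatives, 20 to 27 at 7 h and 25 to 32 at 22 h when each array was left out. The NOS2-/- count at 22 h was 11 to 16 when each array was left out. Over all values of named genes, called or not, 13057 were counted as the same, 372 as weaker, 380 as stronger and 14 as reversed. These counts do not hold every change of sign. With the wild-type saline mice as the control, 13 genes had the other sign at 7 h and 2 at 22 h, most of them not called. The number of mice per group, with a single NOS2-/- saline mouse, limits what small changes can be called. The cause of the changes below was not tested. Where a count under an alternative or at an unadjusted p stands without the matching share of all probe sets, it has no background. Such a count may rise or fall with all probe sets. A pair of further alternatives, with both arrays of the lowest spread left out and the same with the wild-type saline mice as the control, were chosen after seeing the data.

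With each array left out in turn, lower genes numbered 0 to 1 in each of the 4 comparisons with saline and higher genes 3 to 7 in NOS2-/- mice at 7 h. Between genotypes, lower genes numbered 0 to 10 at 7 h and 2 to 14 at 22 h, and higher genes 0 to 3 at 22 h. From 7 h to 22 h, higher genes numbered 2 to 13 in wild-type mice, where lower genes numbered 0 to 1, and 2 to 15 in NOS2-/- mice. Lower genes numbered 0 to 1 for the difference in change with time and 1 to 14 for the difference in response.

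Quantile normalization gave 8 higher genes in NOS2-/- mice at 7 h, 0 lower between genotypes at 7 h, 0 higher and 11 lower at 22 h, 13 higher from 7 h to 22 h in wild-type mice, 1 lower for the difference in change and 1 for the difference in response. The compared groups alone gave 1 lower gene in wild-type mice at 7 h, 1 lower in NOS2-/- mice at 22 h, 6 lower between genotypes at 7 h, 0 higher and 1 lower at 22 h, 0 higher with time in wild-type and 12 in NOS2-/- mice, and 1 lower for the difference in response. At an adjusted p under 0.01, higher genes were 1 and 5 in NOS2-/- mice at 7 h and 22 h, 1 and 2 with time in wild-type and NOS2-/- mice, 0 between genotypes at 22 h, with 0 lower at 7 h and 1 lower for the difference in response.

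Without both arrays of the lowest spread, 1 gene was lower in wild-type mice at 7 h, 12 were higher and 1 lower in NOS2-/- mice at 7 h, and 1 was lower at 22 h. Between genotypes 4 were lower at 7 h, and 2 higher and 14 lower at 22 h. With time 15 were higher in wild-type mice and 3 lower in NOS2-/- mice, 4 were lower for the difference in change and 15 for the difference in response. The mean of a gene's probe sets gave 2 higher in NOS2-/- mice at 7 h, the filter at the 40th percentile 2 lower between genotypes at 7 h and 8 higher with time in NOS2-/- mice, and centring on the median 10 higher with time in NOS2-/- mice.

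Against the wild-type saline mice, 20 and 24 genes were higher in NOS2-/- mice at 7 h and 22 h, and without both arrays 25 and 28, with 1 and 2 lower. With that control and all arrays 13 genes had the other sign at 7 h and 2 at 22 h. Of these, Psmb6 (0.23), Psmb7 (0.31) and Psmd1 (0.22) were called at 7 h and Psmb5 (0.22) at 22 h. Without both arrays these were 0.29, 0.32, 0.29 and 0.22, and Psmd8 (0.25), Psma1 (0.16), Psmc1 (0.18) and Psmd2 (0.19), whose sign had turned already, were called too. Between genotypes at 22 h, Psmd5 went from 0.01 to -0.31 without wild-type LPS 22 h replicate 2 and without both arrays, and lay between -0.31 and 0.20 with each array left out.

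Replicate numbers did not pair the mice: over 30 pairs of same-numbered arrays, deviations from the group means correlated at -0.38 to 0.36, with 4 over 0.1. With the number as a replicate block, 0 genes were higher between genotypes at 22 h, 3 higher with time in NOS2-/- mice and 1 lower for the difference in response.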
